A study of Mus musculus with 33 samples.

Results

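The 10 Wnt ligand genes of mouse colon stroma described here were chosen by symbol, as rows of the single-cell count matrices: Wnt2, Wnt2b, Wnt4, Wnt5a, Wnt5b, Wnt6, Wnt9a, Wnt10b, Wnt11 and Wnt16. They are 10 of the 19 Wnt ligand genes, and of the 31053 genes, in those matrices. They were followed through 17652 cells that each had at least 1000 unique molecular identifiers (UMIs, each standing for 1 captured transcript), at least 500 genes and at most 20% of UMIs from mitochondrial genes. The questions were which cells carry each ligand, how canonical and non-canonical ligands are balanced, and which ligands occur together in single cells.

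The single-cell part of the series has 3 libraries in 2 groups, all from untreated adult mice of both sexes, with the outer muscle of the colon removed and the epithelium released before digestion. The whole mesenchyme library (1 library, 6793 cells, genotype given as control) was sorted as negative for EpCAM, an epithelial protein, and for CD45, a leukocyte protein. The GFP-low libraries (2 replicates, 4834 and 6025 cells) came from PdgfraH2BeGFP mice (JAX strain 007669), in which the Pdgfra locus drives a nuclear green fluorescent protein, and were sorted without staining for a low level of it. Neither the gate limits nor how many animals went into a library is stated. P-values set a difference between sets of cells against how that difference varies between libraries, a spread that may be technical. Only fits without the replicate block also hold the spread of levels between libraries. The other samples of the 33 in the series are not used here.

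Wnt ligands are secreted, lipid-bearing proteins that act over short distances and need the acyltransferase Porcn and the carrier Wls to leave the cell. Canonical ligands bind a Frizzled receptor together with Lrp5 or Lrp6 and stabilise beta-catenin, which keeps the stem cells of the intestinal crypt dividing. Non-canonical ligands act through Frizzled, Ror and Ryk receptors on cell shape, polarity and movement. Wnt2, Wnt2b, Wnt6, Wnt9a and Wnt10b are counted here as canonical and Wnt4, Wnt5a, Wnt5b and Wnt11 as non-canonical. Wnt16 was placed in neither class, and Wnt4, which can act in both ways, was also counted as canonical in an alternative.

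The libraries held 41863444, 39190629 and 52313765 UMIs (the whole library and then the GFP-low replicates 1 and 2, the order of every set of 3 values below), with medians of 4429, 6446.5 and 7025 UMIs per kept cell. Cells were grouped into 21 clusters with the ligands left out of the clustering, and a class name means resemblance to a marker list. Fibroblasts with high Cd81 (Cd81-high) numbered 439, 2900 and 4153, fibroblasts with little Cd81 and much Adamdec1 (Cd81-low) 3367, 1204 and 1359, and cells resembling telocytes, which lie beneath the epithelium, 1583, 26 and 14. Of the 10 fibroblast clusters 8 had over 75% of their cells from 1 library, so clusters and libraries often cannot be told apart, and 2 clusters stayed unnamed. Myc, Mt2 and Ifit1 were among the leading genes of a Cd81-high cluster and Cxcl2 led a Cd81-low cluster, which are stress and inflammatory genes. Library pairs shared 6, 11 and 11 cell barcodes, against 4.83, 6.02 and 4.29 for independent draws. Levels are given as a ligand's UMIs per 1000000 UMIs of the class (CPM) with 95% exact Poisson intervals that cover counting error only; the counts are of transcript ends and were not divided by transcript length.

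Free RNA was measured for comparison with these levels. In barcodes with 1 to 100 UMIs, taken here as RNA outside cells, Wnt4 stood at 117, 33.9 and 31.4 CPM, Wnt5a at 42.0, 7.12 and 19.9 and Wnt2b at 14.2, 18.2 and 19.9. The T or innate lymphoid cells of the GFP-low libraries, which should lack these genes, carried Wnt4 at 54.3 and 135 CPM (83 and 35 cells). These values lay above free RNA of the same libraries, though in GFP-low replicate 1 (29 UMIs) the counting intervals overlapped. The same cells held Pdgfra at 93.6 and 52.2 CPM and Adamdec1 at 4398 and 6420 CPM. Adamdec1 stood at 11061 and 12749 CPM in Cd81-low fibroblasts of these libraries. How fibroblast transcripts came to be in these droplets was not tested. Blood endothelium of whole mesenchyme (802 cells) held Wnt4 at 22.3 CPM, below the free RNA of that library. A low Wnt4 level in a class is therefore not read as expression. The share of a cell's UMIs that came from free RNA was not estimated. Cd81-high fibroblasts held Wnt4 far below its free RNA level in every library (values below). If these barcodes stand for free RNA, it can be only a small part of the UMIs of that class. Its CPM is then no floor for the ligand levels there. A level at or below free RNA, for any ligand, is thus not read as absence either.

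Wnt4 (chr4:137277635-137299501 on GRCm38.p6, the build that mm10 stands for and that all positions below use) was carried by Cd81-low fibroblasts and telocyte-like cells. In Cd81-low fibroblasts it stood at 172 (166 to 179), 206 (196 to 216) and 234 (224 to 244) CPM. In telocyte-like cells it stood at 217 CPM (206 to 228) in whole mesenchyme and at 127 CPM (80.3 to 190) in the 26 such cells of GFP-low replicate 1. The order of these classes thus differed between the libraries, and neither is called higher. In Cd81-high fibroblasts Wnt4 stood at 6.18, 1.14 and 3.99 CPM, below free RNA in every library. Of the Wnt4 UMIs of whole mesenchyme, 64.7% (exact binomial interval 63.3 to 66.1%) came from Cd81-low fibroblasts, which held 55.2% of all UMIs, and 31.7% (30.4 to 33.1%) from telocyte-like cells, which held 21.5%.

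Wnt5a (chr14:28504543-28527448), a ligand of Ror receptors, was concentrated in telocyte-like cells. Its level there was 201 CPM (190 to 212) in whole mesenchyme and 485 CPM (389 to 597) in GFP-low replicate 1. In Cd81-low fibroblasts it was 25.4, 14.6 and 29.4 CPM and in Cd81-high fibroblasts 11.3, 11.9 and 19.8 CPM, below free RNA (42.0 CPM) for both classes in whole mesenchyme. Free RNA was at 7.12 CPM in GFP-low replicate 1, below both classes. In GFP-low replicate 2 it was at 19.9 CPM, below Cd81-low and close to Cd81-high cells. Cd81-high fibroblasts gave 49.9 and 65.2% of the Wnt5a UMIs of the GFP-low libraries, with 64.6 and 75.5% of all UMIs. The few telocyte-like cells there gave 19.2 and 5.55%, with 0.610 and 0.184% of all UMIs. Telocyte-like cells gave 71.1% (69.0 to 73.2%) of the Wnt5a UMIs of whole mesenchyme. With each cell thinned to 1000 UMIs, 16.4% of them had a Wnt5a UMI against 3.00% of Cd81-low fibroblasts and 0.748% of blood endothelium of that library (45.3%, 10.5% and 2.87% unthinned, at median depths of 4100, 5469 and 2908 UMIs). Smooth muscle-like cells (155 cells) followed at 46.9 CPM (32.1 to 66.3), which overlaps the interval of free RNA (33.2 to 52.5). Pdgfra stood at 1200 CPM in telocyte-like cells of whole mesenchyme and at 567 CPM in those of GFP-low replicate 1. Foxl1, a telocyte transcription factor, was at 18.5 and 55.1 CPM in the same cells, on 125 and 10 UMIs. Smooth muscle-like cells of whole mesenchyme held Foxl1 at a similar 16.1 CPM on 11 UMIs.

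Wnt5b (chr6:119432531-119544824), a close relative of Wnt5a, was held by the same classes as Wnt4. It stood at 40.3, 47.9 and 25.0 CPM in Cd81-low fibroblasts, at 35.2 CPM (30.8 to 39.9) in telocyte-like cells of whole mesenchyme and at 10.5, 11.1 and 6.39 CPM in Cd81-high fibroblasts. The counting intervals of Cd81-low and telocyte-like cells overlapped in whole mesenchyme (37.4 to 43.5 for Cd81-low), and the 3 Cd81-high values lay below all values of both. Free RNA held Wnt5b at 27.8, 13.7 and 6.04 CPM.

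Wnt2b, a canonical ligand able to sustain crypt stem cells, was the canonical ligand with the most UMIs, 2454 in all kept cells against 707 for Wnt2 and 705 for Wnt9a. It was held by both fibroblast classes, at 24.4, 21.5 and 24.4 CPM in Cd81-high and 28.4, 29.0 and 39.6 CPM in Cd81-low cells. In telocyte-like cells of whole mesenchyme it was at 7.86 CPM (5.89 to 10.3), below free RNA (9.27 to 20.8) though the intervals overlap. Wnt2 was at 4.36, 7.80 and 5.00 CPM in Cd81-high and 5.43, 24.2 and 9.23 CPM in Cd81-low fibroblasts. The Cd81-low value of GFP-low replicate 1 stood apart, with 198 UMIs in 1204 cells, while free RNA of that library held Wnt2 at 13.0 CPM, above the Cd81-high level. The Cd81-low levels of Wnt2b lay above free RNA in every library, with counting intervals that did not overlap. The Cd81-high levels of Wnt2b overlapped free RNA in all 3 libraries by these intervals, and the Cd81-low levels of Wnt2 did in whole mesenchyme and GFP-low replicate 2. The T or innate lymphoid cells of GFP-low replicate 2 held Wnt2b at 34.8 CPM on 8 UMIs.

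Wnt9a, Wnt10b and Wnt11 had their highest fibroblast levels in the Cd81-high class. Wnt11 (chr7:98835084-98854747), known for directing cell movement, was at 13.4, 23.1 and 12.7 CPM there and at 2.72, 2.20 and 1.04 CPM in Cd81-low fibroblasts. Wnt9a (chr11:59306849-59333552) was at 10.9, 11.6 and 9.44 against 2.54, 3.06 and 3.81 CPM. Wnt10b, a canonical ligand, was at 3.63, 5.83 and 4.48 CPM on 10, 112 and 138 UMIs, against 3, 3 and 2 UMIs in all Cd81-low cells. For these 3 ligands the values of the classes did not overlap, and telocyte-like cells of whole mesenchyme held 18 Wnt11, 4 Wnt9a and 0 Wnt10b UMIs (a count of 0 allows up to 0.445 CPM). Free RNA held Wnt11 at 2.18, 14.7 and 8.46 CPM, Wnt9a at 2.73, 6.38 and 5.44 and Wnt10b at 0, 4.17 and 4.23. The Cd81-high levels were above it in every library, but counting intervals overlapped for Wnt10b in all 3 libraries and for Wnt9a and Wnt11 in GFP-low replicate 2.

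Wnt6 (chr1:74754342-74785322) had its highest level in glia-like cells. The 65 glia-like cells, all from whole mesenchyme, held it at 76.1 CPM (47.7 to 115) on 22 UMIs, and 27.7% of them had a UMI (6.15% with cells thinned, against 0.632% of telocyte-like cells). Telocyte-like cells of that library were at 4.15 CPM on 28 UMIs and Cd81-low fibroblasts at 1.85 CPM, and free RNA was at 2.73 CPM. Glia-like cells made up 0.957% of the library and gave 24.7% (16.2 to 35.0%) of its Wnt6 UMIs. With 1 library there is no replicate check.

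Wnt16 (chr6:22288178-22298522) was rare, with 67 UMIs in all kept cells. Cd81-low fibroblasts held 28, 11 and 18 of them and Cd81-high fibroblasts 0, 0 and 4. A count of 0 allows up to 1.09 CPM in the Cd81-high cells of whole mesenchyme and 0.156 CPM in those of GFP-low replicate 1. Smooth muscle-like cells held 4 UMIs (5.87 CPM). Each of the other 9 Wnt ligand genes had at most 2 UMIs in all kept cells, among them Wnt3a, a neighbour of Wnt9a on chromosome 11, with 0.

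**Figure D1:**
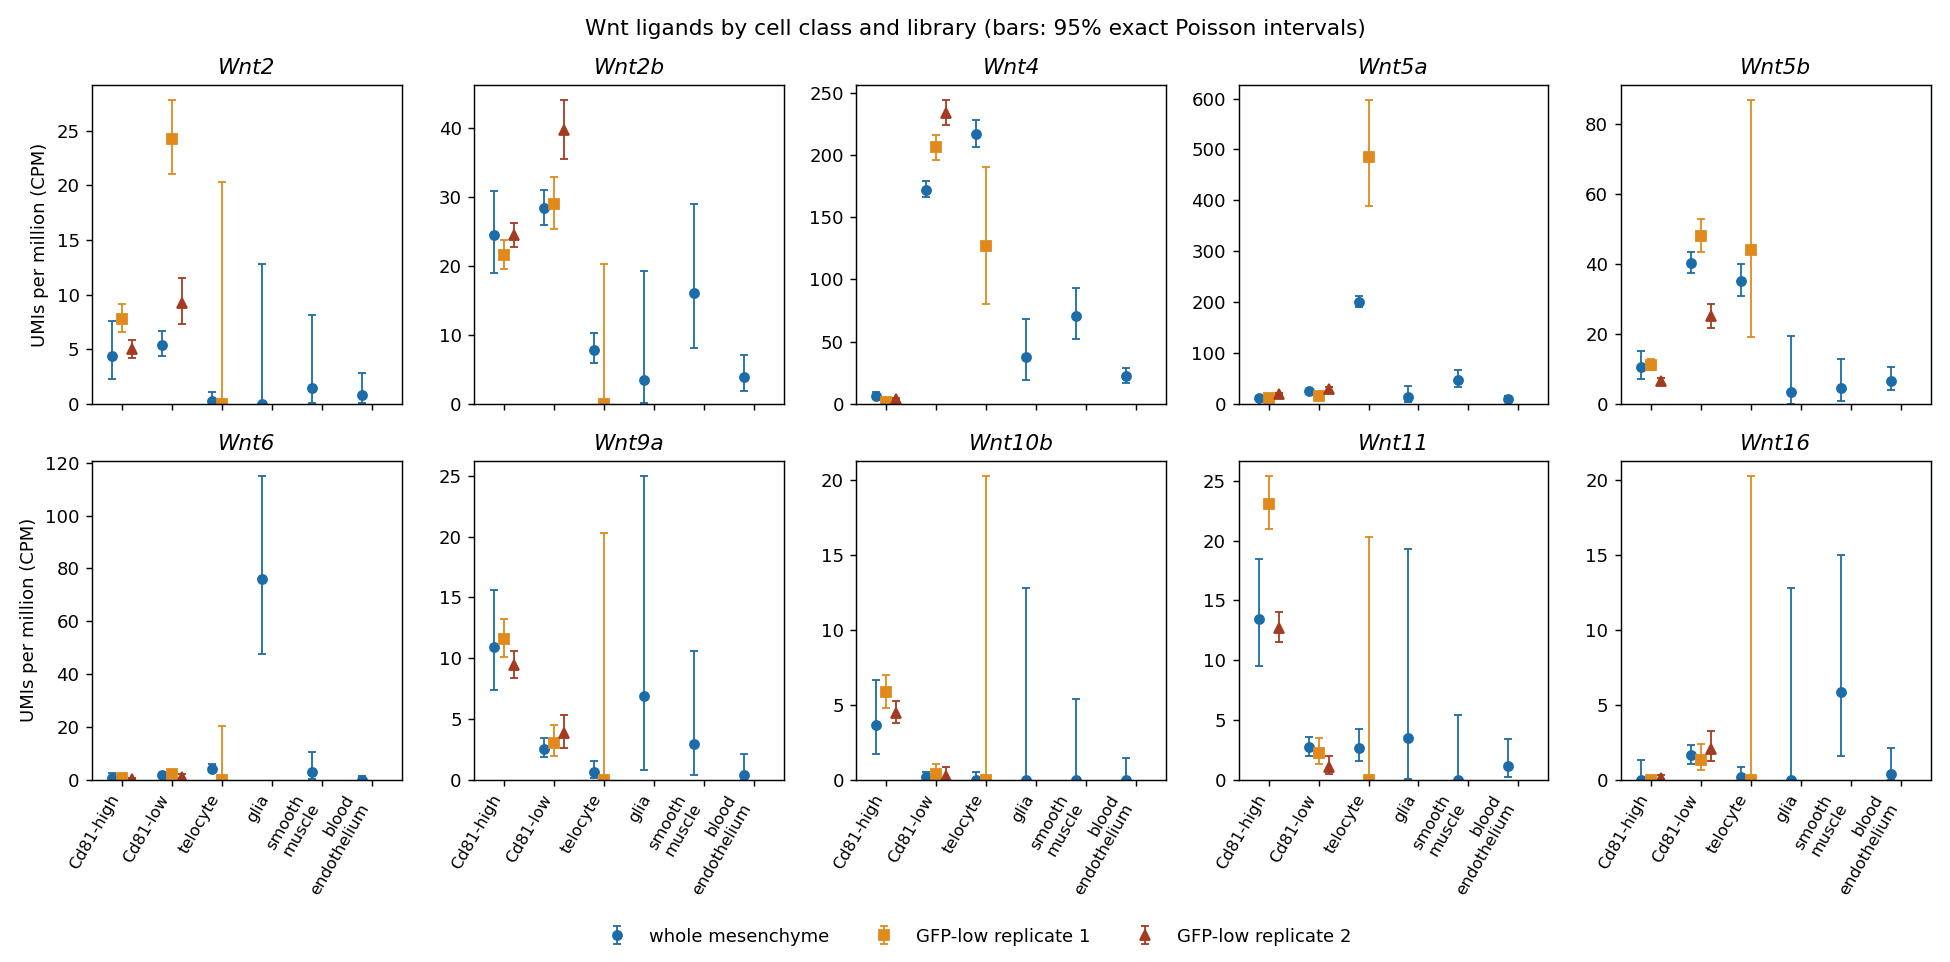
Level of each ligand in CPM (linear axes that differ between panels) by cell class; points are libraries with at least 20 cells of the class and bars are 95% exact Poisson intervals. Wnt4 stands at 172 to 234 CPM in Cd81-low fibroblasts and at most 6.18 CPM in Cd81-high ones, Wnt5a peaks in telocyte-like cells (201 and 485 CPM) and Wnt6 in glia-like cells (76.1 CPM).

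Canonical and non-canonical ligands were about equal in Cd81-high fibroblasts, and non-canonical ligands prevailed in Cd81-low fibroblasts and telocyte-like cells. Canonical ligands made up 51.5% (exact binomial interval 44.9 to 58.0%), 50.0% (47.7 to 52.4%) and 50.4% (48.5 to 52.4%) of the classified Wnt UMIs in Cd81-high fibroblasts. In Cd81-low fibroblasts they made up 13.7% (12.8 to 14.8%), 17.9% (16.4 to 19.4%) and 15.7% (14.4 to 17.1%). Telocyte-like cells had 2.75% (2.21 to 3.39%) in whole mesenchyme and 0 of 119 UMIs in GFP-low replicate 1, which allows up to 3.05%. Glia-like cells stood at the other end with 59.5% (43.3 to 74.4%), mostly Wnt6.

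The difference between the fibroblast classes was 37.7, 32.2 and 34.7 percentage points, a mean of 34.9 ± 2.75 (SD, n = 3 libraries). No p-value is given, since 3 paired libraries cannot bring an exact sign-flip test below 0.25. The level of canonical ligands themselves differed less, at 44.0, 47.3 and 43.7 CPM in Cd81-high and 38.4, 58.8 and 54.0 CPM in Cd81-low fibroblasts, with the order of the classes turned in whole mesenchyme. Non-canonical ligands stood at 41.4, 47.2 and 42.9 CPM against 241, 271 and 290 CPM. Wnt4 alone made up 61.4, 62.2 and 67.7% of the Wnt UMIs of Cd81-low cells. With Wnt4 counted as canonical the difference turned to -16.7, -29.1 and -28.8 points, a mean of -24.9.

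**Figure D2:**
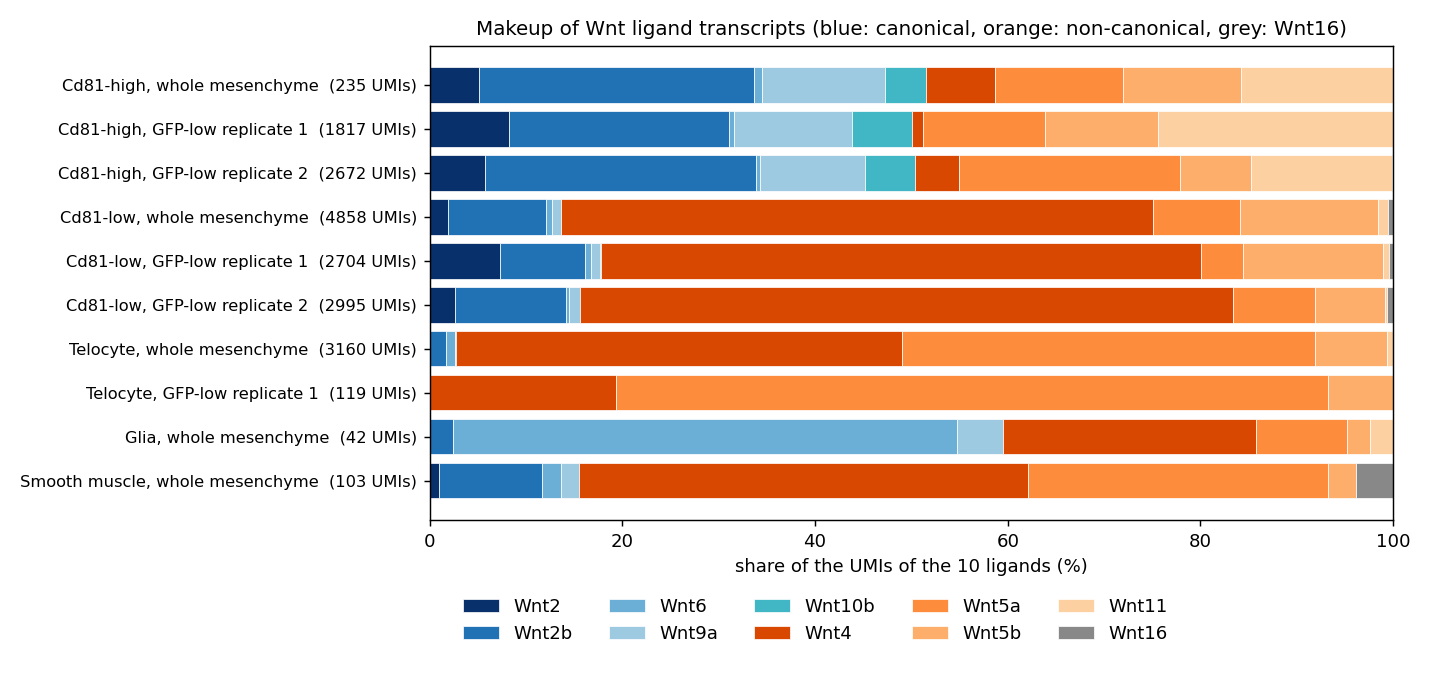
Share of each ligand (percent, horizontal axis) in the UMIs of the 10 ligands, by class and library, with the number of UMIs in brackets; blue shades are canonical and orange shades non-canonical. Wnt4 takes 61.4 to 67.7% of the Cd81-low bars, Wnt4 and Wnt5a fill most of the telocyte bars, and the Cd81-high bars divide among several ligands, with 50.0 to 51.5% canonical.

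The 2 fibroblast classes were compared by edgeR's quasi-likelihood test on sums per library and class, with library as block and Benjamini-Hochberg adjustment over 6410 genes. All 10 ligands passed the low-count filter and the threshold of 0.05: 3 were higher and 7 lower in Cd81-high cells, beside 13.7% of all genes called higher and 14.8% called lower. The median log2 difference was -0.79 over the ligands and -0.01 over all genes. Wnt6, Wnt10b and Wnt16 passed the filter through the class in which they were high, so their differences are partly built in.

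The larger differences were these, as log2 of Cd81-high over Cd81-low on TMM-normalised sums. Wnt4 was lower, at -6.06 (SE 0.32, adjusted p = 8.60e-07) and so was Wnt5b, at -1.92 (SE 0.11, adjusted p = 1.79e-06). Wnt11 was higher by 3.08 (SE 0.25, adjusted p = 1.44e-05), Wnt9a by 1.83 (SE 0.19, adjusted p = 8.60e-05) and Wnt10b by 4.24 (SE 0.36, adjusted p = 1.93e-05). Each had its direction in 3 of 3 libraries. Among the non-canonical ligands, Wnt11 thus went the other way from Wnt4 and Wnt5b. Wnt16 was lower, at -4.35 (adjusted p = 7.54e-04) on few counts, and at -6.96 without GFP-low replicate 2, where the Cd81-high sums left are 0 and the value is no bound. With the highest doublet scores left out Wnt16 was at -5.91 and Wnt10b at 5.24. Without GFP-low replicate 1 Wnt4 was at -5.44.

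Wnt2 (-1.08, adjusted p = 0.00386), Wnt6 (-1.70, adjusted p = 0.0108), Wnt2b (-0.39, adjusted p = 0.0256) and Wnt5a (-0.50, adjusted p = 0.0442) were lower by calls that depended on the processing. Wnt2 lost its call without GFP-low replicate 1 and without the block, and Wnt6 without GFP-low replicate 1 and with DESeq2. Wnt2b lost its call under 5 of 10 other settings and Wnt5a under 6 of 10. The normalised values of the classes overlapped for Wnt2, Wnt5a and Wnt2b and did not for Wnt6. For Wnt2b they were 50.2, 43.8 and 57.0 in Cd81-high against 58.6, 54.8 and 83.5 in Cd81-low cells.

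A separate look within the Cd81-high class asked whether its ligands are shared by all of its clusters. An F test among the 6 clusters called 27.0% of 5021 genes and 5 of the 8 ligands tested: Wnt2 (adjusted p = 9.53e-16), Wnt10b (1.79e-14), Wnt2b (2.18e-08), Wnt11 (3.25e-07) and Wnt5b (0.0159). Wnt4, Wnt5a and Wnt9a did not pass (adjusted p = 0.666, 0.353 and 0.889), and Wnt6 and Wnt16 had too few counts to be tested. Wnt5b lost its call with DESeq2, without whole mesenchyme, without GFP-low replicate 2 and without the block, and Wnt11 without the block. Without GFP-low replicate 1 only 4 ligands could be tested, and Wnt5b and Wnt10b were not among them.

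Wnt2 and Wnt10b were concentrated in the cluster led by Pi16 and Dpp4, genes of adventitial fibroblasts, which held 611 cells (25, 314 and 272), 8.16% of the class. This cluster was singled out after its values were seen. Wnt2 stood there at 52.3, 45.9 and 35.5 CPM, and in no other Cd81-high cluster with at least 20 cells did it exceed 5.60 CPM. Wnt10b stood at 17.4, 37.0 and 29.5 CPM, against at most 7.51 CPM in the others. With 5.69, 10.8 and 6.55% of the cells of the class, the cluster gave 9 of 12, 98 of 150 (65.3%) and 72 of 154 (46.8%) of its Wnt2 UMIs. It gave 3 of 10, 79 of 112 (70.5%) and 60 of 138 (43.5%) of its Wnt10b UMIs. Both ligands stood above free RNA there in every library.

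Wnt2b ran the other way. It stood at 11.6, 5.62 and 7.39 CPM in the Pi16 cluster (2, 12 and 15 UMIs) and higher, up to 42.1 CPM, in every other cluster and library with at least 20 cells, so the values did not overlap. Wnt11 was at 29.0, 46.9 and 18.7 CPM in the Pi16 cluster, the highest value within each library, but across libraries the range of the other clusters (0 to 28.0 CPM) overlapped. Without the Pi16 cluster the class difference of Wnt2 grew from -1.08 to -2.22 (adjusted p = 2.85e-04) and that of Wnt10b shrank from 4.24 to 3.35 (adjusted p = 6.10e-04).

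**Figure D3:**
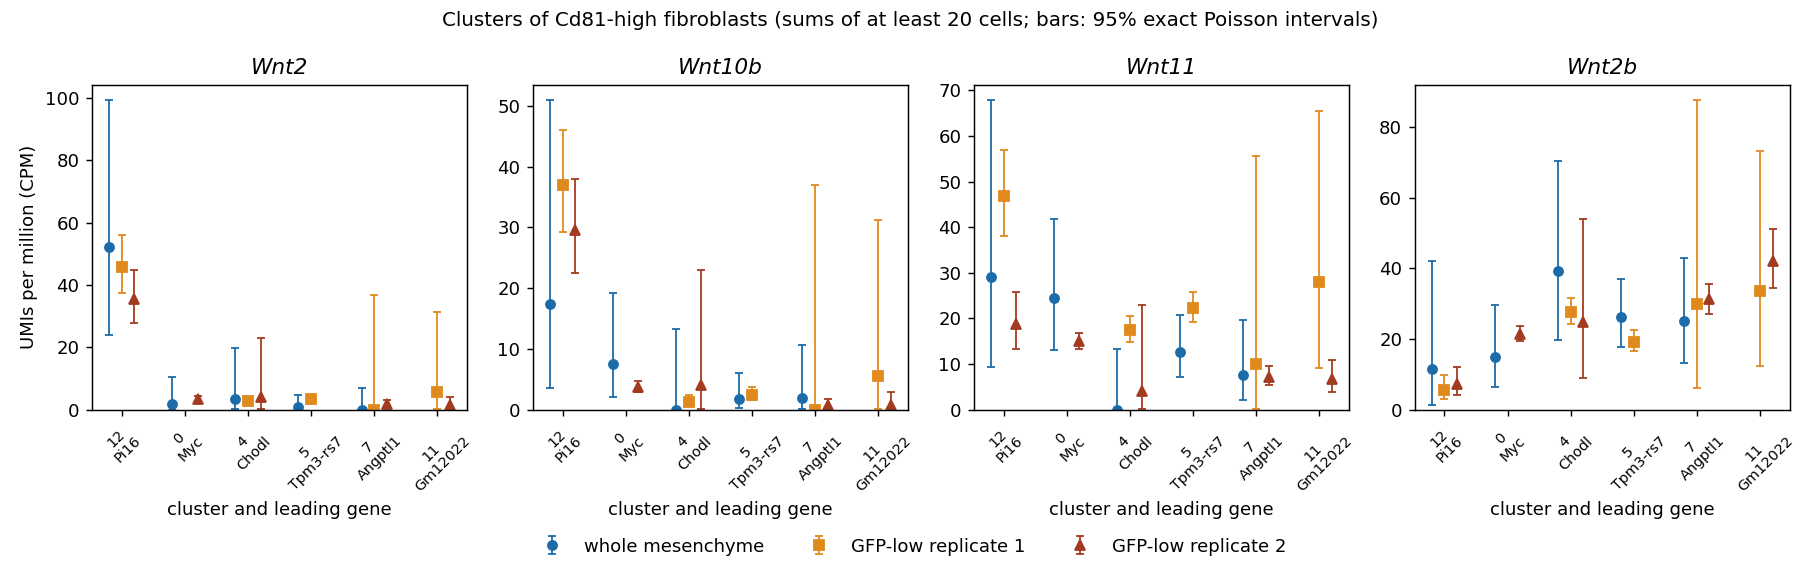
Level of 4 ligands in CPM (linear axes) in the clusters of Cd81-high fibroblasts, labelled by number and leading gene; points are libraries with at least 20 cells and bars are 95% exact Poisson intervals. Cluster 12, led by Pi16, stands at 35.5 to 52.3 CPM for Wnt2 and 17.4 to 37.0 CPM for Wnt10b, and at the low end for Wnt2b (5.62 to 11.6 CPM).

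The start regions of these 3 canonical ligands are shown because their levels separate Cd81-high clusters: Wnt2 and Wnt10b high with Pi16, Wnt2b low. Each is the 250 bases before the start site, 5′ to 3′ on the strand of the gene, from RefSeq on GRCm38.p6. Wnt2 (ENSMUSG00000010797) lies at chr6:17985474-18032772, Wnt10b (ENSMUSG00000022996) at chr15:98770712-98778206 and Wnt2b (ENSMUSG00000027840) at chr3:104944805-104961709. Capitals mark a GC box (GGGCGG) or a CCAAT box (CCAAT) on either strand; a TATA box (TATAAA) and a Tcf/Lef site (CTTTGAT) were also searched.
Wnt2, chr6:18030446-18030695, minus strand: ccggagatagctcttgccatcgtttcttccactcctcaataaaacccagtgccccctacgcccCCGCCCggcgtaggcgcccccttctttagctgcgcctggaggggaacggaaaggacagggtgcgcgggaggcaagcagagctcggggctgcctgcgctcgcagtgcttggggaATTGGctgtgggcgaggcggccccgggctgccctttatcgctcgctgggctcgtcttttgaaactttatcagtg
Wnt10b, chr15:98778151-98778400, minus strand: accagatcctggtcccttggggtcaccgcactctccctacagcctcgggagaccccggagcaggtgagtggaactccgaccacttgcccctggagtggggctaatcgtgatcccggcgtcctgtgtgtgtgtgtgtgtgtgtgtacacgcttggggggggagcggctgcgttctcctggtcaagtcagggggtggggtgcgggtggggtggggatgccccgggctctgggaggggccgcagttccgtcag
Wnt2b, chr3:104961710-104961959, minus strand: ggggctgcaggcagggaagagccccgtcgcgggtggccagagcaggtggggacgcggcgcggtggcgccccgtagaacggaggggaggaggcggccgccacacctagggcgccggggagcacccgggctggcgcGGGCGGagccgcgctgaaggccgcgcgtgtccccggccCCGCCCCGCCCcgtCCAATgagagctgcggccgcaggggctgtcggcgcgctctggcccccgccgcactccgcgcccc
The Wnt2 window holds 1 GC box and 1 CCAAT box, the Wnt2b window 3 GC boxes, of which 2 overlap, and 1 CCAAT box, and the Wnt10b window none of the 4 motifs. Of 32851 such windows 32.7% hold a GC box, 33.8% a CCAAT box, 12.4% a TATA box and 3.21% the Tcf/Lef site. The windows are 63.6% (Wnt2), 66.8% (Wnt10b) and 80.8% (Wnt2b) G and C, against a median of 52.4%. The Wnt2 window lies inside the span given for its gene and the Wnt10b window overlaps the end of its gene, since the start sites used differ from the ends of those spans. A match is a description only. Windows were found for 9 of the 10 ligands.

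The locus of Wnt2b overlaps that of St7l, and the locus of Wnt5b encloses Fbxl14. Both partners start on the opposite strand. Whether the counting used strand is not stated in the labels or processing notes, so the counts of Wnt2b and Wnt5b could hold some reads of these genes. The near Wnt neighbours of 3 ligands had almost no UMIs in kept cells: Wnt10a, 6697 bases from Wnt6, had 2 UMIs, Wnt1, 11651 bases from Wnt10b, had 1, and Wnt3a, 16098 bases from Wnt9a, had 0.

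Within the Cd81-low class the ligands varied less clearly. The F test among its 4 clusters called 30.7% of 5278 genes and 1 of the 6 ligands tested, Wnt2 (adjusted p = 0.0377), while Wnt5a (0.0539) and Wnt4 (0.0706) did not pass. Wnt2 was highest in a cluster with 1063 of its cells from GFP-low replicate 1 (25.0 CPM there), and the same cluster held 7.55 and 10.2 CPM in the 46 and 29 cells of the other libraries. Wnt4 ranged from 136 to 432 CPM over the clusters and was above the free RNA of the same library in each. Without whole mesenchyme 0 of 3 ligands tested passed in edgeR (0 at an unadjusted p under 0.05), and the count of genes called fell from 1618 to 74. Without GFP-low replicate 1 the 1 ligand called was Wnt5a instead.

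Among single cells with a Wnt ligand, 1 ligand was more often seen than several. No ligand UMI was found in 61.3, 57.7 and 57.0% of Cd81-high fibroblasts, and exactly 1 ligand in 31.0, 32.7 and 32.9%. In Cd81-low fibroblasts 42.0, 29.5 and 30.1% had none, 36.7, 37.6 and 42.1% had 1, and several were common: 16.1, 24.3 and 20.8% had 2 and 5.17, 8.64 and 6.99% had 3 or more. Telocyte-like cells of whole mesenchyme had none in 32.5%, 1 in 37.0% and 2 in 23.8%. Cells lacking a UMI may still express the gene, and with cells thinned to 1000 UMIs the shares with any ligand were 6.83, 9.31 and 7.71% in Cd81-high, 22.4, 24.3 and 28.1% in Cd81-low and 33.3% in telocyte-like cells.

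The make-up of these cells differed by class. The commonest ligand seen alone was Wnt2b in Cd81-high fibroblasts (9.79, 8.48 and 10.7% of cells) and Wnt4 in Cd81-low fibroblasts (20.3, 17.9 and 23.7%). The commonest combination in telocyte-like cells was Wnt4 with Wnt5a alone, in 275 cells (17.4%), and another 68 (4.30%) held Wnt4, Wnt5a and Wnt5b. In Cd81-low fibroblasts it was Wnt4 with Wnt5b in whole mesenchyme and GFP-low replicate 1 (5.73 and 9.47%) and Wnt4 with Wnt5a in GFP-low replicate 2 (5.67%).

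Because deeper cells show more ligands, each of the 45 pairs was compared with the number of cells expected within deciles of UMIs per cell, as a Mantel-Haenszel odds ratio. Cells are not replicates, so no p-value is given, and the libraries serve as the check. In Cd81-low fibroblasts 11 pairs had at least 10 cells expected in every library; 3 were above an odds ratio of 1 and 4 below it in all 3 libraries. Wnt4 occurred with Wnt5a in 205, 59 and 126 cells against 159, 47.3 and 92.0 expected (odds ratios 1.96, 1.83 and 2.46) and with Wnt5b at odds ratios of 1.47, 1.83 and 1.70. Wnt4 and Wnt2b were found together less often than expected, in 160, 92 and 114 cells against 189, 104 and 139 (0.702, 0.749 and 0.617). In the same class a canonical and a non-canonical ligand met in 296, 207 and 176 cells against 319, 224 and 211 expected (0.797, 0.736 and 0.548), while in Cd81-high fibroblasts that odds ratio was 0.954, 1.04 and 1.14.

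Telocyte-like cells gave values for these pairs in 1 library. Wnt4 occurred with Wnt5a in 372 cells against 345 expected (odds ratio 1.43), with Wnt5b in 114 against 96.6 (1.63) and with Wnt2b in 23 against 26.1 (0.774). Blood endothelium, whose Wnt4 and Wnt5a levels lay below those of free RNA, showed Wnt4 with Wnt5a in 7 cells against 2.51 expected (odds ratio 5.21). The part of doublets or shared droplets in the pairs was not tested.

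In Cd81-high fibroblasts the pairs named here were chosen after their values were seen. Wnt2 and Wnt10b occurred together in 1, 21 and 26 cells against 0.274, 4.13 and 5.08 expected (odds ratios 4.20, 7.93 and 8.41). Wnt2 and Wnt2b met in 0, 7 and 12 cells against 1.40, 15.3 and 22.8, and Wnt2b and Wnt10b in 1, 6 and 6 against 1.16, 12.7 and 20.9. The same pairs were counted inside and outside the Pi16 cluster, with 5 depth bins and without a test of the difference. Wnt2 and Wnt10b had odds ratios of 0, 1.93 and 1.90 inside it (0, 18 and 17 cells against 0.800, 12.5 and 12.4 expected) and of 27.3, 5.72 and 6.79 in the other Cd81-high clusters (1, 3 and 9 cells against 0.0483, 0.627 and 1.70). Wnt2 and Wnt2b had odds ratios of 0, 0.297 and 1.54 inside and 0, 0.798 and 0.510 outside, beside 0, 0.407 and 0.468 over the whole class. The low value of that pair thus did not hold inside the Pi16 cluster in GFP-low replicate 2. Wnt2b and Wnt10b had odds ratios of 0.783 and 0.290 inside in the GFP-low replicates and of 1.06, 0.792 and 0.350 outside, beside 0.836, 0.412 and 0.234 over the whole class.

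**Figure D4:**
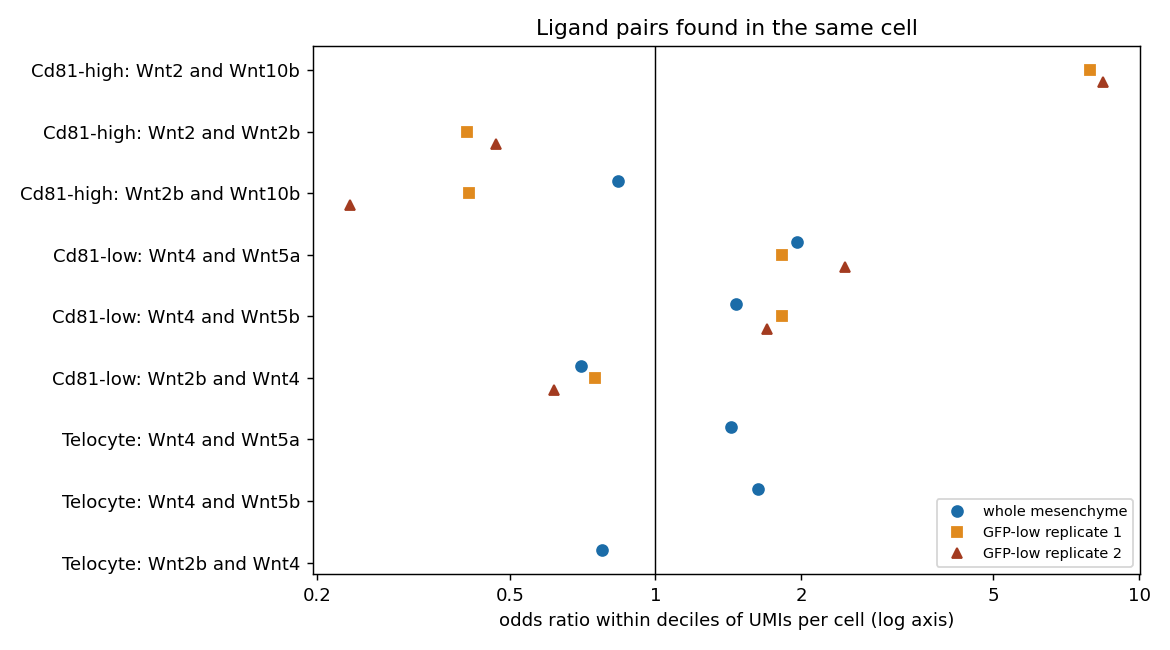
Odds ratio (log axis, 1 marks the number expected from depth) for 9 class and ligand pair combinations, 1 point per library; points with under 1 cell expected or with no cell are left out. Wnt2 with Wnt10b stands at 7.93 and 8.41 in Cd81-high fibroblasts, Wnt4 with Wnt5a at 1.83 to 2.46 in Cd81-low fibroblasts, and the plotted pairs with Wnt2b lie below 1. Pairs of Wnt2b not plotted for Cd81-low fibroblasts include those with Wnt2 (0.867 to 1.60), Wnt5a (0.665 to 1.04) and Wnt5b (0.788 to 0.859).

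The secretion and reception machinery was compared in the same fit, in which 13.7% of all genes were higher in Cd81-high cells and 14.8% lower. Wls, the Wnt carrier, was lower in Cd81-high cells at a log2 difference of -0.62 (adjusted p = 9.83e-04), at 130, 111 and 126 CPM against 185, 196 and 216, with Gpc6, a cell-surface proteoglycan, the other of 2 genes called among 4 tested. Telocyte-like cells held Wls at 191 and 204 CPM and glia-like cells at 124 CPM. Of 13 receptors tested 4 were higher, among them Fzd4 (1.36) and Fzd5 (1.00), and 7 lower, among them Ptk7 (-1.26), a co-receptor of non-canonical signals. Of 5 R-spondins and R-spondin receptors 3 were higher, Rspo2 (1.78), Rspo3 (1.56) and Rspo1 (1.49), which boost canonical signalling, and none lower.

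Beside the same 13.7% higher and 14.8% lower over all genes, of 6 secreted inhibitors tested 2 were higher, Dkk2 (4.50) and Sfrp4 (4.07), and 3 lower, led by Frzb (-5.39), which binds Wnts. Of 6 response genes none was higher and 2 were lower, Tcf7 (-3.52), a transcription factor that works with beta-catenin, and Axin2 (-0.44, adjusted p = 0.0401), a feedback inhibitor it induces. Those 2 of 6 are near the share called in either direction over all genes, 1829 of 6410. Dkk2 stood at most at 0.243 normalised CPM in Cd81-low cells and Tcf7 at most at 1.27 in Cd81-high cells. Both passed the low-count filter through the class in which they were high, so their differences are partly built in. List medians of the log2 difference were -0.41 for secretion, -0.48 for receptors, 1.49 for R-spondins and their receptors, -0.02 for inhibitors and 0.02 for response genes, beside -0.01 over all genes.

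The genes most like each ligand were taken by Pearson correlation of log2(CPM + 10) over 13 sums of at least 50 cells per class and library, among 6186 genes. These sums share libraries and classes, so the values are descriptions. Wnt4 was most like Adamdec1, Hpse and Cxcl14 (each 0.95), Wnt5a like Bmp2 (0.90), Wnt5b like Cdh11 (0.91) and Wnt2b like Plekha6 (0.96). Wnt6 was most like Kcna2 (0.99), Wnt11 like Pi16 (0.94), Wnt10b like Sfrp4 (0.96), Wnt9a like Blvrb (0.89) and Wnt2 like Hebp1 (0.85). Adamdec1, Cxcl14, Bmp2, Cdh11, Plekha6, Kcna2 and Pi16 also entered the clustering that formed the classes. Wnt16, with under 100 UMIs, was left out of this measure.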

How the data were processed

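The deposited files are unfiltered matrices of UMI counts per gene and barcode (31053 genes). The submitters' processing notes name Cell Ranger 3.0.2 and mm10; 10x Genomics 3′ V3.1 chemistry with 8000 cells loaded is named per the labels' protocols. Barcodes passed at 1000 UMIs, 500 genes and at most 20% mitochondrial UMIs. Scrublet called 2, 3 and 3 doublets, so it has not worked as a filter; an alternative left out the 6% of cells with the highest scores.

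Genes were split at random. Markers entered the clustering part and the ligand and pathway lists the held-out part. Cells were clustered together in scanpy 1.11.5 (2000 variable genes, 30 components, 15 neighbours, Leiden resolution 1, seed 1) without integration, and clusters were named from at least 3 elevated markers. UMIs were summed per library and class (at least 20 cells) and tested with edgeR 4.0.16 (R 4.3.3), using filterByExpr, TMM, the quasi-likelihood test and Benjamini-Hochberg adjustment. Both class sums of a library come from the same sorted cells, so library is the replicate block. The fit was also run on counts simulated from the kind of model it assumes, with a fixed spread. That run does not test how well the model suits these data. DESeq2 1.42.0 was an alternative.

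Named genes were all 10 ligands, up to 3 per pathway list with the largest absolute change among those called with 1 direction throughout the libraries, and the genes most like each ligand. The members, lists and tests were chosen with earlier results of these data known.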

Additional observations from a re-analysis of the deposited data

How the results depend on the processing

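Of 97 ligand and setting combinations in the class comparison, all 97 kept the direction and 15 lost the call, those of Wnt5a, Wnt2b, Wnt2 and Wnt6. Against 3 higher and 7 lower ligands and 1829 genes called, 4 ligands were lower with DESeq2, 4 without the replicate block (828 genes called) and 4 of 7 tested with cells thinned to 1000 UMIs (894 genes). Leaving out 1 library gave 1317 to 2293 genes, 3 higher and 4 to 6 lower ligands. Leaving the Pi16 cluster out, chosen after seeing the data, gave 3 higher and 5 lower. Among Cd81-high clusters (1356 genes, 5 ligands), DESeq2 called 750 genes, the fit without the replicate block 382 genes and 3 ligands, and thinned cells 418 genes with no ligand testable. Without 1 library these were 561 to 936 genes (561 without the replicate 2 and 779 without the replicate 1 of GFP-low) and 3 to 4 ligands. Among Cd81-low clusters (1618 genes, 1 ligand), the counts were 733 genes and 0 ligands with DESeq2, 479 genes without the replicate block, 408 genes and 0 ligands with thinned cells, and 74 to 1602 genes and 0 to 1 ligands without 1 library (74 without whole mesenchyme, 942 without GFP-low replicate 2). At an unadjusted p under 0.05 each fit with 0 ligands called had 0, against 3 for edgeR with all libraries. Clustering resolution 2 called 4 of 5 ligands there, no low-count filter 2 of 10 and leaving out the highest doublet scores 2 of 5, so which ligands are called within the Cd81-low class depends on these settings. The difference in canonical share was 34.9 points, turned to -24.9 with Wnt4 as canonical, and lay at 32.5 to 36.2 under every other setting run, 33.5 to 36.2 without 1 library. The cause of these changes was not tested. Ligands with under 100 UMIs in a class are limited by depth.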

Other observations

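Cells left outside the named classes also carried ligands. The larger unnamed cluster (1182 cells, with a median depth of 0.304 of that of its libraries) held Wnt11 at 22.9, 36.0 and 22.1 CPM and Wnt9a at 19.6, 16.9 and 23.5 CPM, above the Cd81-high class of the same library (13.4, 23.1 and 12.7 and 10.9, 11.6 and 9.44 CPM). The whole mesenchyme values rest on 7 and 6 UMIs, and their counting intervals overlap those of the class. The smaller one, with 41 cells in whole mesenchyme, held Wnt4 at 143 CPM (65.3 to 271) and Wnt5a at 63.4 CPM (17.3 to 162), beside 117 and 42.0 CPM in free RNA of that library. Neither cluster enters a comparison above.

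Smooth muscle-like cells of whole mesenchyme (155 cells) held the 10 ligands at 151 CPM together, with Wnt4 at 70.4 CPM (51.9 to 93.3), below free RNA, and Wnt2b at 16.1 CPM (8.05 to 28.9). Their Wls level was 258 CPM, against 185 CPM in Cd81-low fibroblasts of the same library.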
